A study of Mus musculus with 6 samples.

Results

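Expression of 9 receptor genes whose products make uterine smooth muscle contract was measured in uteri of mice with a conditional deletion of Tcf21 and of controls. The genes encode the oxytocin receptor (Oxtr), the vasopressin V1a receptor (Avpr1a), the muscarinic receptors M2 and M3 (Chrm2, Chrm3), the alpha-1A adrenergic receptor (Adra1a), both endothelin receptors (Ednra, Ednrb), the type 1a angiotensin receptor (Agtr1a) and the tachykinin receptor NK2 (Tacr2). They were taken by gene symbol from the deposited table, which lists 26018 genes, and all 9 were found. Bulk RNA sequencing was done on 6 female mice aged 6 weeks and matched for body weight. In 3 of them Tcf21, the gene of a mesenchymal transcription factor with a basic helix-loop-helix domain, had been deleted conditionally (Tcf21 d/d, called cKO). The other 3 were controls with floxed, undeleted copies (Tcf21 f/f). No animal was treated, and each library came from 1 animal. The sources used here name neither the strain nor the promoter that drove the recombinase, so the cells that lost Tcf21 cannot be stated.

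All 9 receptors pass through the membrane 7 times and signal through G proteins. Oxytocin, vasopressin, acetylcholine at M3, noradrenaline at alpha-1A, endothelin, angiotensin II and neurokinin A act mainly through Gq, which activates phospholipase C, releases calcium through inositol trisphosphate and so switches on myosin light chain kinase. M2 couples to Gi and restrains cyclic AMP, the signal that relaxes smooth muscle. In the uterus oxytocin is the best known of these agonists, and its receptor is abundant in the muscle wall, the myometrium.

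The libraries held between 14584450 and 16579573 reads on genes. Tcf21 had normalised read counts of 26.0, 0 and 0 in cKO replicates 1 to 3, against 341.4, 151.9 and 144.1 in control replicates 1 to 3. The cKO libraries without a read could still hold Tcf21 at 2.93 and 3.31. A list of 10 smooth muscle markers took 0.0845 to 0.0969% of reads in cKO libraries and 0.713 to 1.07% in controls. The libraries also differed in RNA that is not typical of uterus. Control replicate 1 held 1.58% of its reads on 13 hepatocyte genes, against at most 0.0126% in any other library. Control replicate 3 held 0.0466% on 9 genes of autonomic and enteric neurons, against at most 0.00798% elsewhere, and 4 of the 9 were at 0 in each cKO library, Elavl3 among them. Control replicate 2 held 0.0116% on 6 intestinal epithelium genes, against at most 0.00515% elsewhere, and Cdx2, which defines intestinal epithelium, was at 0 in the other 5 libraries. A list of 8 uterine identity genes (Hoxa10, Hoxa11, Hoxd10, Esr1, Pgr, Wnt7a, Wt1 and Emx2) took 0.00829 to 0.015% in cKO libraries and 0.0478, 0.0378 and 0.0133% in control replicates 1, 2 and 3. Control replicate 3 thus lay inside the cKO range for uterine identity genes, and its share of 7 epithelial genes (0.00294%) did so too, against 0.0374 and 0.0169% in control replicates 1 and 2. Skeletal muscle genes took 7.90 ± 1.56% of reads in cKO libraries and 4.38 ± 1.45% in controls (SD, n = 3 each). In bulk tissue, fewer cells of a type and less RNA per cell cannot be told apart.

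No receptor gene passed the test between cKO and control uteri. Tcf21 itself, the deleted gene, did not pass either (log2 fold change -6.03, limma adjusted p = 0.0765). A gene that is not called may thus still differ. Among the alternatives Tcf21 was called with a pseudocount of 5 (limma adjusted p = 0.0301), with a replicate block (0.0126) and without cKO replicate 1 (0.00583). DESeq2 (adjusted p 0.256) and edgeR (0.245) did not call it. Of the 9 genes, 7 had enough reads to be tested, and limma called 0 of them lower and 0 higher (Benjamini-Hochberg adjusted p under 0.05 over all genes), where 0.889% of the 16314 tested genes were called lower and 0.276% higher, or 1.16% in all. At an unadjusted p under 0.05, 1 of the 7 was lower, Oxtr, and 0 higher, where 7.6% of tested genes were lower and 6.11% higher (13.7% in all). DESeq2 gave no adjusted p for Chrm3 and Adra1a. Among the other tested receptor genes it called 1 lower, again Oxtr, and 0 higher. Of the 15556 genes with a DESeq2 adjusted p, 3.72% were called lower and 1.8% higher (5.52% in all). The quasi-likelihood test of edgeR called 0, where it called 0.736% lower and 0.19% higher (0.926% in all). In the cKO mean 5 of the 7 were lower and 2 higher on the log2 scale, with a median log2 fold change of -0.51, against 0.0020 over all tested genes. In none of the 7 did all 3 cKO libraries lie on one side of all 3 controls, while 10.5% of tested genes lay fully below the controls and 9.04% fully above (19.6% in all). Chrm2 and Tacr2 were not tested, because too few libraries held enough of their reads, and both were near or at 0 in cKO libraries.

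**Figure D1:**
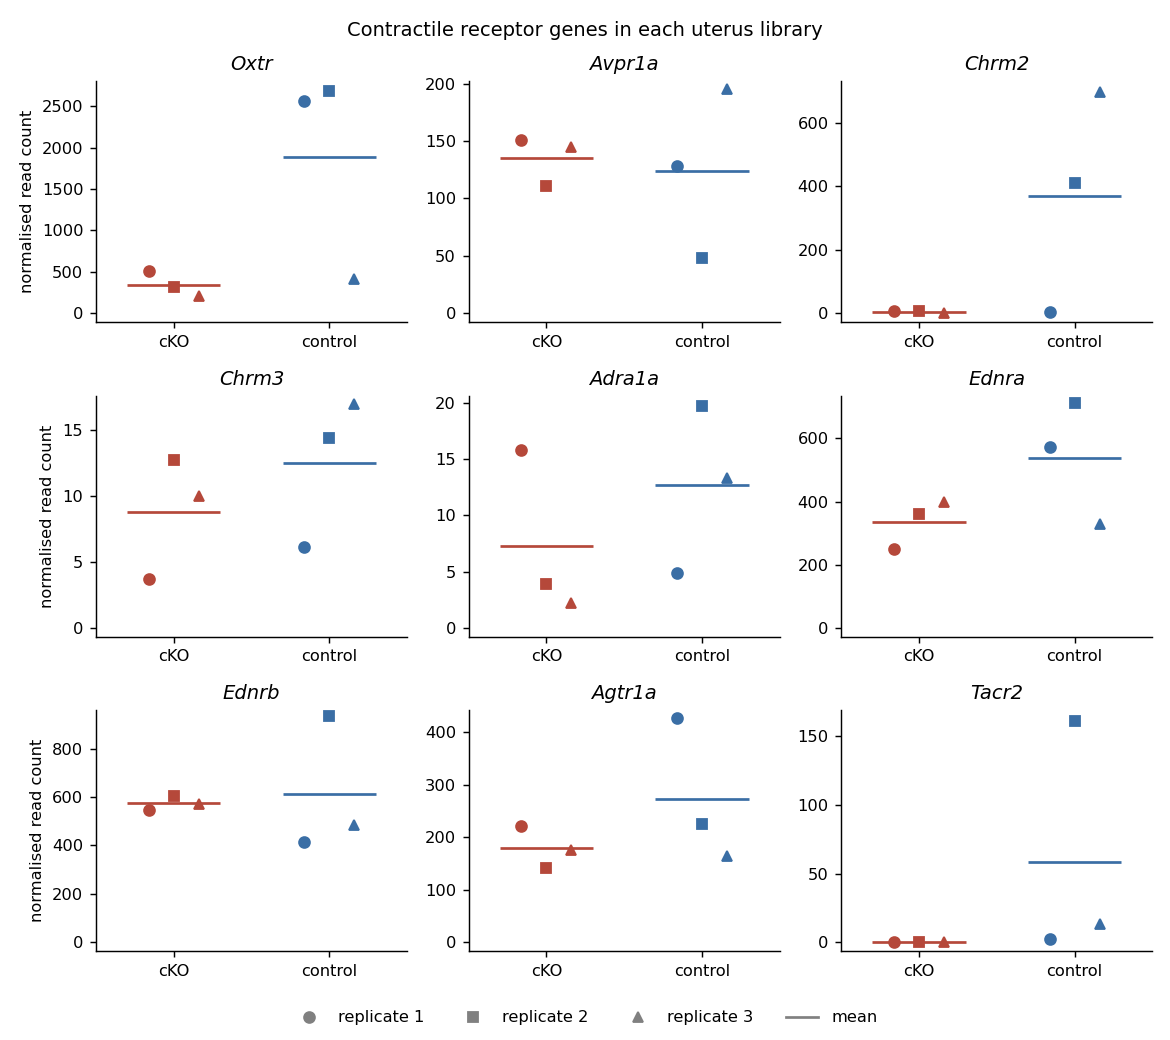
Normalised read count (y axis, linear, a separate scale for each gene) of the 9 receptor genes in 3 cKO and 3 control libraries. Symbols mark the replicate and lines the group mean. The highest cKO value of Oxtr, 505.5, was above control replicate 3 (414.6) and below control replicates 1 and 2 (2568 and 2679).

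Scaled by exon length, the receptor genes formed an abundant and a scarce set in cKO uteri, and the same sets in control replicate 1. In cKO uteri Ednrb was highest with 134.6 ± 6.54 normalised reads per kilobase of exon (SD, n = 3). Oxtr followed with 71.1 ± 32.0, Agtr1a with 64.4 ± 14.4, Ednra with 61.5 ± 14.1 and Avpr1a with 50.7 ± 7.96, and these 4 had overlapping ranges, so that their order is not set by these data. Chrm3 (1.40), Adra1a (0.837) and Chrm2 (0.788) lay far below, and Tacr2 had no read. In controls Oxtr was highest with 394 ± 266 reads per kilobase, and Ednrb had 143.3 ± 65.8, Ednra 98.2 ± 35.6, Agtr1a 97.9 ± 49.5, Chrm2 61.1 ± 57.6, Avpr1a 46.3 ± 27.6, Tacr2 26.1 ± 39.2, Chrm3 1.99 ± 0.904 and Adra1a 1.45 ± 0.856. Each neighbouring pair in the control order overlapped in range. The only gaps between neighbours were in cKO uteri, between Ednrb and Oxtr and between Avpr1a and Chrm3. The mean cKO level of Oxtr per kilobase exceeded that of 70.9% of listed genes, and its mean control level exceeded that of 92.8%.

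**Figure D2:**
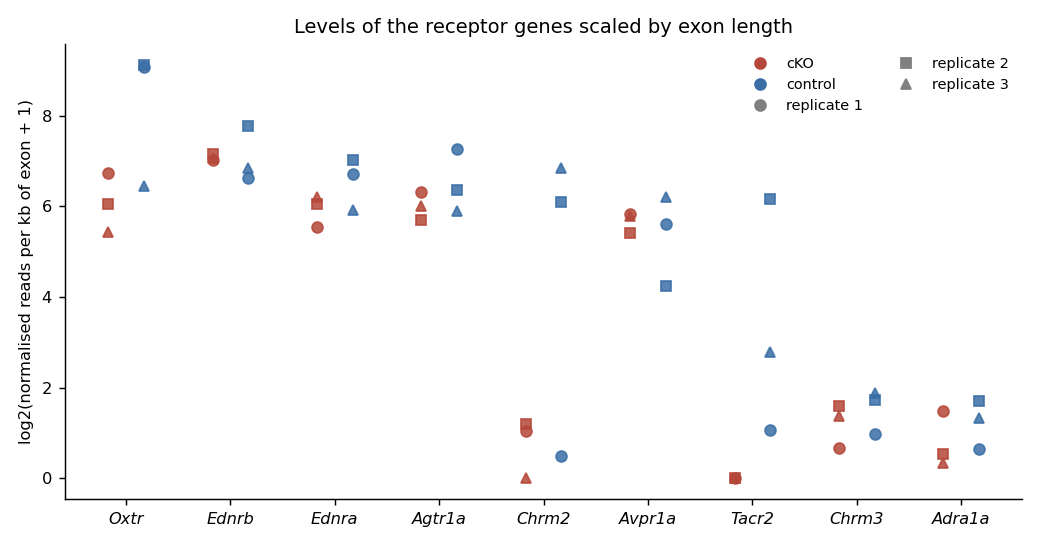
Level of each receptor gene scaled by exon length (y axis, log2 of normalised reads per kilobase plus 1) in every library, cKO left of control for each gene, with symbols for the replicate. Genes run from the highest to the lowest control mean, and Chrm3 and Adra1a stay under 3 reads per kilobase in all 6 libraries.

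Oxtr (ENSMUSG00000049112, chromosome 6, 112473683 to 112489943 on the minus strand, GRCm38, 3 exons) encodes the receptor through which oxytocin contracts the uterus. Its normalised read counts were 505.5, 314.0 and 202.2 in cKO replicates 1 to 3, against 2568, 2679 and 414.6 in control replicates 1 to 3. The groups overlap, since control replicate 3 lies below cKO replicate 1, while both other controls are far above every cKO library. The means were 340.6 ± 153 in cKO and 1887 ± 1276 in control uteri (SD, n = 3 each). The log2 fold change was -2.15 ± 0.82 (SE), with a 95% interval of -4.19 to -0.12 and an adjusted p of 0.34 (limma). For Oxtr the authors' deposited table lists -2.47 on the log2 scale, at an adjusted p of 0.0526. Without control replicate 3, the log2 fold change was -3.04 and the gene was called lower (limma adjusted p = 0.00995, where 1.39% of genes were called lower in that comparison). That library was the lowest control for Oxtr itself and for uterine identity transcripts. Its smooth muscle share, 0.936% of reads, lay above that of control replicate 1 (0.713%). Leaving out any other library gave a limma adjusted p of 0.424 to 0.675. DESeq2 gave -2.47 with an adjusted p of 0.0458. Over all alternatives the adjusted p ran from 0.00995 to 0.675 and the log2 fold change from -3.04 to -1.70. The spread of Oxtr between controls, an SD of 1.53 on the log2 scale, was larger than that of 94.6% of tested genes.

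The 300 bases around the start of Oxtr are shown because TCF21 belongs to a class of factors that bind E-boxes, and those around the start of Ednrb are shown beside them as the receptor gene whose group means lay closest together on the log2 scale. Capitals mark matches to the E-box letters CANNTG, which read the same on both strands. The sequences are from RefSeq on GRCm38.p6, from 250 bases before to 50 bases after the start, and lie at chr6:112489776-112490075 for Oxtr and chr14:103843652-103843951 for Ednrb, both on the minus strand and written 5′ to 3′.
Oxtr: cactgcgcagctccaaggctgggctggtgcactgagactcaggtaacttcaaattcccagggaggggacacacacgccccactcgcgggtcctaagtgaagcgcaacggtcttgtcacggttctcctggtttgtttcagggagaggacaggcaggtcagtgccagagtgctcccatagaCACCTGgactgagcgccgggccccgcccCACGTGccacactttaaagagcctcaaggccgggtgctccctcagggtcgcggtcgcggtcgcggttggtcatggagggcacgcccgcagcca
Ednrb: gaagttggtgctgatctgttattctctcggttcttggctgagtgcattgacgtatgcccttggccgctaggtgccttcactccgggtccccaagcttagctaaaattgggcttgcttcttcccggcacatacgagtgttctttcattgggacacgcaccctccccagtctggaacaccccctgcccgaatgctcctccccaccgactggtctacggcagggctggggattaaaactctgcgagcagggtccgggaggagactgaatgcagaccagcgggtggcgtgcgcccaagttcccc
The Oxtr window holds matches that begin 71 bases (CACCTG) and 43 bases (CACGTG) before the RefSeq start, and the Ednrb window holds 0. By the gene coordinates given here, the Oxtr window spans the start of its gene at 112489943. The Ednrb window lies wholly inside its gene, which starts at 103844402, so the windows are not placed alike. Promoters of 7 of the 9 receptor genes were in the table, all but those of Adra1a and Agtr1a, and 5 of these 7 held CANNTG, as did 72.1% of 27025 promoters of the same length. The narrower letters CAGCTG, a subset of the first motif, were in 0 of 7 and in 16.1% of all promoters, and the CArG box, read by serum response factor, was in 0 of 7 and in 1.57% of all (both strands searched). Of the other windows, that of Chrm2 held 0 matches to CANNTG, and that of Avpr1a held CACCTG 172 bases before the start. The window of Ednra held CAAGTG 214 bases before it, that of Tacr2 CATCTG 38 bases and that of Chrm3 CACTTG 1 base before it. A match is a description of the letters and not evidence of binding.

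Avpr1a (ENSMUSG00000020123, chromosome 10, 122448499 to 122453452 on the plus strand, GRCm38, 2 exons) encodes a receptor of the same family, which oxytocin can also activate. It had normalised read counts of 150.5, 111.2 and 144.7 in cKO libraries, against 128.0, 47.6 and 194.8 in controls. The cKO values lie inside the control range. Its log2 fold change was 0.34 ± 0.47 (SE), with a 95% interval of -0.74 to 1.41 (limma, adjusted p = 0.816), and it was -0.23 without control replicate 2, the lowest library. Avpr1a is also a hepatocyte gene, and control replicate 1, which held the hepatocyte transcripts, had a value between those of the other controls. The part of hepatocyte transcripts in the Avpr1a values was not tested. Within a library, the length-scaled ratio of Oxtr to Avpr1a on the log2 scale was 0.90, 0.65 and -0.36 in cKO uteri and 3.47, 4.94 and 0.24 in controls. The difference in means was -2.49, with an exact permutation p of 0.3 (two-sided; 3 libraries against 3 cannot go below 0.1).

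Chrm2 (ENSMUSG00000045613, chromosome 6, 36388084 to 36528414 on the plus strand, GRCm38, 4 exons) encodes the M2 receptor of smooth muscle and heart. Its normalised read counts were 6.50, 7.80 and 0 in cKO replicates 1 to 3, against 2.44, 410.7 and 695.7 in controls. Control replicate 1, with 2 reads, was as low as the cKO libraries, and the other controls were far above all of them. The cKO mean was at least 62.9-fold lower than the control mean when the cKO library at 0 is set to its limit of 3 reads, and at least 35.2-fold lower without control replicate 3. Fitted with no filter on low values, the log2 fold change was -4.62 ± 2.49 (SE), with a 95% interval of -11.24 to 2.0 (limma, adjusted p = 0.646). With control replicate 1 left out, it was -7.05 and called (limma adjusted p = 0.00624, where 2.03% of genes were called lower in that comparison). The authors' deposited table lists Chrm2 as lower by -6.27 on the log2 scale at an adjusted p of 0.0348, where 2.37% of its genes with a p-value were lower and 3.25% called in all. The neuron markers took 0.0039 to 0.0051% of reads in cKO libraries and 0.00296, 0.00798 and 0.0466% in control replicates 1 to 3, the same order as Chrm2 in the controls, and their part in the Chrm2 values was not tested. An antisense long noncoding RNA shares 2.35% of the exon bases of Chrm2, and no source says whether reads were counted by strand.

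Chrm3 (ENSMUSG00000046159, chromosome 13, 9875486 to 10360847 on the minus strand, GRCm38) encodes M3, the Gq-coupled muscarinic receptor. It had 4, 13 and 9 reads in cKO libraries and 5, 16 and 19 in controls, or normalised read counts of 3.72, 12.7 and 9.94 against 6.10, 14.4 and 16.9. The groups overlap, and the log2 fold change of -0.49 ± 0.81 (SE) had a 95% interval of -2.32 to 1.34 (limma, adjusted p = 0.85). A difference within that interval is compatible with these data. The interval is not a limit of detection, and the test could also miss a larger difference. The length-scaled log2 ratio of Chrm2 to Chrm3 was 0.72, -0.59 and -3.40 in cKO libraries and -0.998, 4.79 and 5.33 in controls, with an exact permutation p of 0.3.

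Adra1a (ENSMUSG00000045875, chromosome 14, 66635251 to 66771168 on the plus strand, GRCm38) encodes the alpha-1A receptor, through which sympathetic noradrenaline contracts smooth muscle. It had 17, 4 and 2 reads in cKO libraries and 4, 22 and 15 in controls, with normalised read counts of 15.8, 3.90 and 2.21 against 4.88, 19.8 and 13.3. The highest cKO library lay above 2 of the controls. The log2 fold change was -0.91 ± 0.97 (SE), with a 95% interval of -3.09 to 1.27 (limma, adjusted p = 0.744). Its transcripts share a stretch of 132 bases at 95% identity or more with Parva, against 8728 exon bases in all. Its relative Adra1b, named after its values were seen, had 3.72, 0 and 0 normalised reads in cKO libraries and 187.8, 1.80 and 0 in controls. Its highest library, control replicate 1, held the hepatocyte transcripts, and their part in the Adra1b value was not tested.

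Both endothelin receptor genes were abundant in every library. Ednra (ENSMUSG00000031616, chromosome 8, 77663031 to 77724464 on the minus strand, GRCm38, 8 exons) encodes the ETA receptor, which contracts vascular and uterine smooth muscle. Its normalised read counts were 249.96, 360.8 and 398.9 in cKO uteri, against 573.1, 712.7 and 327.4 in controls. Control replicate 3 was again below cKO libraries, 2 of them here. The log2 fold change was -0.63 ± 0.30 (SE), with a 95% interval of -1.32 to 0.058 (limma, adjusted p = 0.412), and it was -0.95 without control replicate 3 (limma adjusted p = 0.11) and -0.39 without control replicate 2. Over the alternatives its adjusted p ran from 0.11 to 0.679. Vascular mural cell markers took 0.055 to 0.0688% of reads in cKO libraries and 0.0512, 0.0893 and 0.176% in control replicates 1, 2 and 3, and their part in the Ednra values was not tested. A gene on the opposite strand shares 1.66% of the exon bases of Ednra.

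Ednrb (ENSMUSG00000022122, chromosome 14, 103814625 to 103844402 on the minus strand, GRCm38, 8 exons) encodes the ETB receptor, found on smooth muscle, endothelium and glia, where it also clears endothelin. It had normalised read counts of 548.2, 603.6 and 570.1 in cKO uteri, against 415.8, 932.9 and 484.9 in controls. The 3 cKO libraries lie close together, inside the wider control range. The log2 fold change was 0.0014 ± 0.28 (SE), with a 95% interval of -0.63 to 0.63 (limma, adjusted p = 0.999). Blood endothelium markers took 0.0822 ± 0.00951% of reads in cKO and 0.0716 ± 0.0159% in control libraries (SD, n = 3 each), and Schwann cell and glia markers took 0.0434 ± 0.0101% in cKO and 0.0229 ± 0.0107% in control libraries. Limma called 0 of 8 endothelial genes, and of 6 glial genes it called 2 higher, where 0.276% of all tested genes were called higher and 1.16% in all. Their part in the Ednrb values was not tested. Per length, Ednra made up 26.2, 31.8 and 35.3% of the sum of both endothelin receptor genes in cKO libraries and 51.8, 37.3 and 34.5% in control replicates 1 to 3. The log2 ratio of Ednra to Ednrb averaged -1.16 ± 0.31 in cKO and -0.52 ± 0.55 in control uteri, with an exact permutation p of 0.2.

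Agtr1a (ENSMUSG00000049115, chromosome 13, 30336441 to 30382867 on the plus strand, GRCm38) encodes the main receptor for angiotensin II in the mouse. It had normalised read counts of 221.2, 141.4 and 175.7 in cKO libraries, against 428.0, 225.6 and 164.6 in controls. The highest control was replicate 1, and control replicate 3 lay below 2 cKO libraries. The log2 fold change was -0.51 ± 0.35 (SE), with a 95% interval of -1.30 to 0.29 (limma, adjusted p = 0.586). Without control replicate 1 it was -0.13 (limma adjusted p = 0.872). Hepatocytes also express Agtr1a, the hepatocyte markers took 1.58% of reads in control replicate 1, and their part in its value was not tested. The paralog Agtr1b shares a stretch of 144 bases at 95% identity or more with Agtr1a, whose exons span 2786 bases, and had 0 reads in cKO libraries and 0, 4 and 20 in controls.

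Tacr2 (ENSMUSG00000020081, chromosome 10, 62252438 to 62265990 on the plus strand, GRCm38, 5 exons) encodes NK2, the receptor for neurokinin A. It had 0 reads in all 3 cKO libraries, which leaves room for up to 2.79, 2.93 and 3.31 normalised reads. In controls its normalised read counts were 2.44, 160.9 and 13.3. The value of control replicate 1, which rests on 2 reads, is below those limits, so that this library could not be told from the cKO libraries at this depth. The cKO level, set to its limit of 3 reads per library, was at least 19.6-fold lower than the control mean of 58.9, and at least 2.62-fold lower without control replicate 2. Fitted with no filter on low values, the log2 fold change was -4.32 ± 1.28 (SE) with a limma adjusted p of 0.152, and its adjusted p ran from 0.0823 to 0.538 over the fits that held it. For Tacr2 the authors' deposited table lists -8.32 on the log2 scale, at an adjusted p of 0.0374. Control replicate 2 was the library with the highest share of intestinal epithelium genes, at 0.0116% of reads against 0.00255 to 0.00427% in cKO libraries. It also had the highest share of smooth muscle markers, which took 0.713, 1.07 and 0.936% in control replicates 1 to 3, the same order as Tacr2. The part of either list in the Tacr2 values was not tested.

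**Figure D3:**
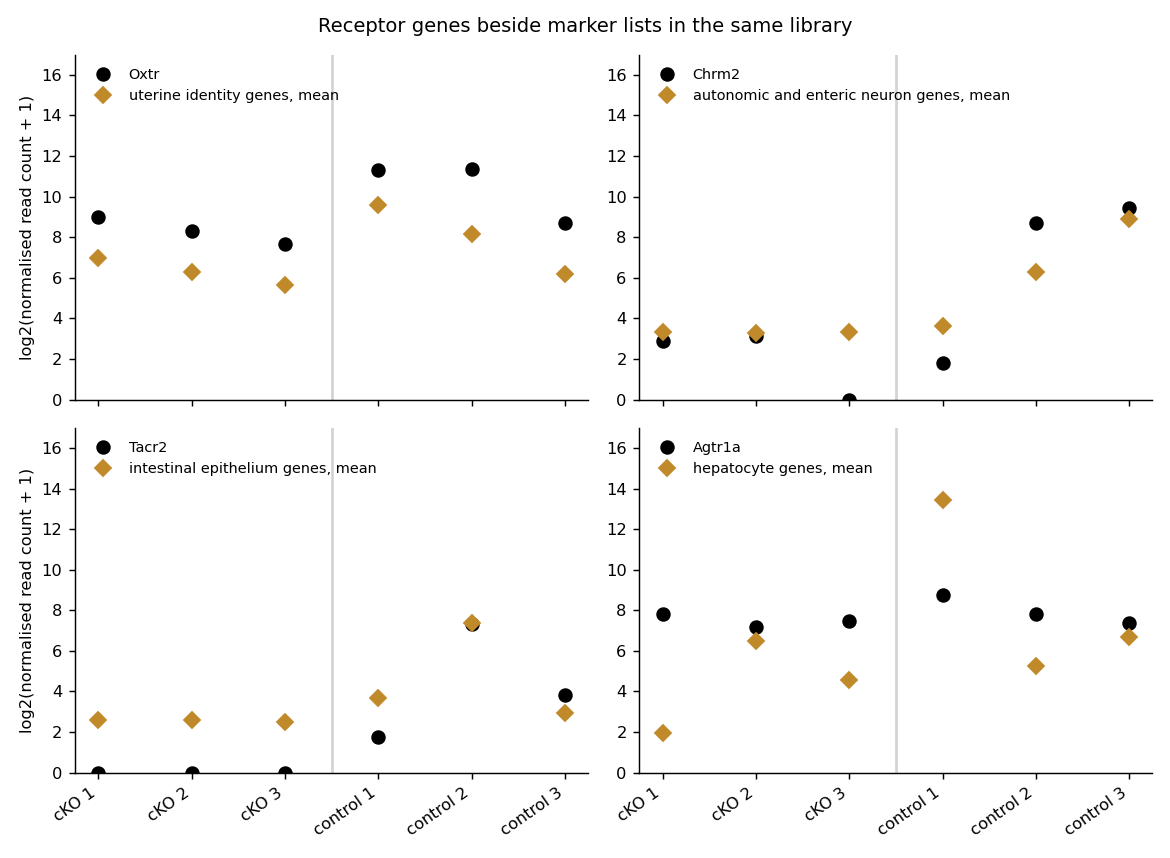
Log2 of the normalised read count plus 1 (y axis) of 4 receptor genes (black) and the mean of a marker list on the same scale (gold) in each of the 6 libraries, cKO left of control. Oxtr is shown with the 8 uterine identity genes, Chrm2 with 9 neuron genes, Tacr2 with 6 intestinal epithelium genes and Agtr1a with 13 hepatocyte genes.

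Of the marker lists, the smooth muscle genes are given beside all 9 receptor genes. Limma called 8 of the 10 markers lower, where 0.889% of all tested genes were called lower, and their median was -3.84 on the log2 scale. Myh11, the smooth muscle myosin heavy chain, had 1400 ± 145 normalised reads in cKO uteri and 32446 ± 9568 in controls (SD, n = 3 each). Set against the mean log2 of these markers in the same library, 95.5% of all tested genes lay higher in all 3 cKO uteri than in all 3 controls, and so did 6 of the 9 receptor genes, so that this says nothing particular about the receptors. The genes outside those 6 were Oxtr, Chrm2 and Tacr2. The log2 value of Oxtr minus the marker mean was -0.013, -0.0036 and -0.73 in cKO libraries and -0.59, -1.20 and -3.63 in controls. These values overlap, with a difference of 1.56 and an exact permutation p of 0.2, and the difference was 0.65 without control replicate 3. Chrm2 and Tacr2 differed by -0.91 and -0.60, with exact permutation p values of 0.7 and 0.9, and their direction was not stable. The difference of Chrm2 was 0.47 without control replicate 3, 0.016 without cKO replicate 3 and -3.15 without control replicate 1. That of Tacr2 was 0.75 without control replicate 2, 1.07 with a pseudocount of 5 and -1.69 without control replicate 1.

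The same difference was taken against the 8 uterine identity genes, a list chosen for this after its values in these libraries were seen, so that it is a description only. For Oxtr it was 2.01, 2.02 and 2.02 in cKO replicates 1 to 3 and 1.75, 3.23 and 2.48 in controls. The difference in means was -0.47 (exact permutation p of 0.4), -0.84 without control replicate 1 and -0.097 without control replicate 2. Over all 9 receptor genes it ran from -2.94 for Chrm2 to 2.02 for Avpr1a, with exact permutation p values of 0.2 to 0.9. Of the 8 genes 7 were tested. Limma called 0 of them, where it called 1.16% of all tested genes, while DESeq2 called 4 lower, where it called 3.72% of genes lower.

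**Figure D4:**
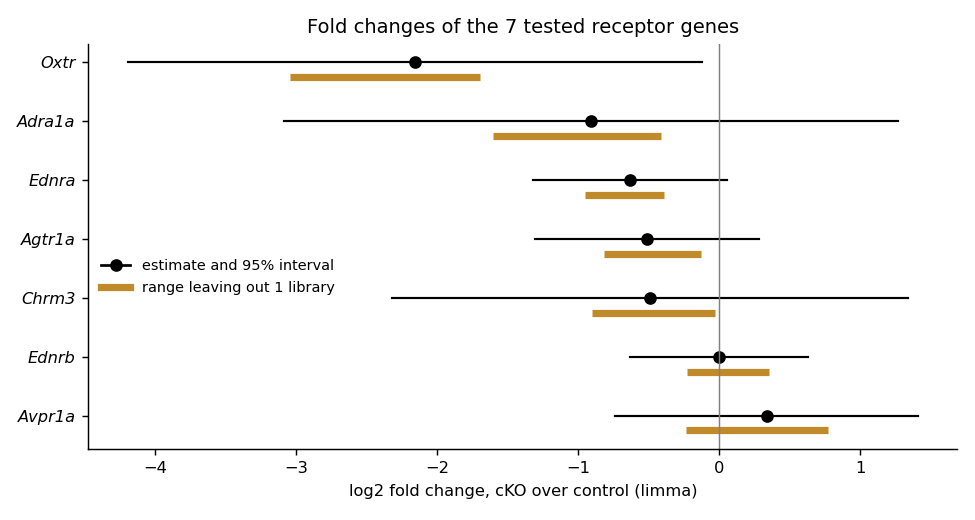
Log2 fold change, cKO over control, of the 7 tested receptor genes (x axis) from the limma fit, with the 95% confidence interval as a black line and the range of the estimate over leaving out each library in turn as a gold bar. The interval of Oxtr, from -4.19 to -0.12, is the only one of the 7 that does not include 0, and the bars of Ednrb and Avpr1a cross 0.

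Around the receptors, 8 lists of 109 genes covered related receptors, ligands, enzymes, G proteins, effectors and desensitisation. Of these, 93 were tested, and limma called 2 lower and 0 higher, or 2.15% lower, where 0.889% of all tested genes were called lower. The first was Ppp1r14a, which encodes CPI-17, the inhibitor through which protein kinase C holds back myosin phosphatase. It had 289.9, 150.2 and 188.9 normalised reads in cKO libraries, against 2059, 807.1 and 1621 in controls, with no overlap. Its log2 fold change was -2.78 ± 0.37 (SE) with a limma adjusted p of 0.0171, and it lost the call without cKO replicate 2 (adjusted p 0.098) or cKO replicate 3 (adjusted p 0.121). The second was Gng12, a G protein gamma subunit gene, with 1004, 1110 and 972 normalised reads in cKO libraries and 1911, 1987 and 1596 in controls. Its log2 fold change was -0.83 ± 0.16 (SE) with a limma adjusted p of 0.0447. Gng12 lost the call without any 1 of the cKO libraries (adjusted p 0.163 to 0.267) and without control replicate 2 (0.079). It also lost the call with limma-voom (0.0548) and with a replicate block (0.0651). Exons of an antisense gene overlap 2.64% of those of Gng12.

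Among the other 17 G protein subunit genes none passed, and 5 were lower and 0 higher at an unadjusted p under 0.05, where 7.6% of all tested genes were lower and 6.11% higher. DESeq2 called 4 of all 18 lower, where it called 3.72% of genes lower. Gnai1, a Gi alpha subunit gene, averaged 86.2 ± 28.1 in cKO and 384.3 ± 306 in control uteri (SD, n = 3 each, limma adjusted p = 0.172). Gng2 averaged 263.2 ± 68.4 in cKO and 587.1 ± 243 in control uteri (adjusted p 0.194). Gnaq, the Gq alpha subunit gene, averaged 420.1 ± 42.8 in cKO and 605.7 ± 116 in control uteri (adjusted p 0.288). Of the 18 effector genes, Itpr1, the inositol trisphosphate receptor that releases calcium, had a log2 fold change of -0.58 ± 0.18 (SE, limma adjusted p = 0.196). Prkce, a protein kinase C gene, was at -0.85 (adjusted p 0.19) and the phospholipase C gene Plcb2 at 0.84 (adjusted p 0.331). The median log2 fold change was -0.11 over the 18 G protein genes and -0.15 over the 18 effectors, against 0.0020 over all tested genes.

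Of 13 other contractile receptor genes limma called 0, and at an unadjusted p under 0.05 3 were lower and 2 higher, where 7.6% of all tested genes were lower and 6.11% higher. DESeq2 called 3 lower (Ptger3, F2r and Tbxa2r) and 1 higher (P2ry2), where it called 3.72% of genes lower and 1.8% higher. P2ry2, a receptor for ATP and UTP, had 429.3, 420.3 and 391.1 normalised reads in cKO libraries, against 236.5, 228.3 and 194.8 in controls. All 3 cKO values were above all 3 controls, and it missed the threshold with a log2 fold change of 0.91 ± 0.18 (SE, limma adjusted p = 0.0558). P2ry6, a receptor for UDP, had a log2 fold change of 0.76 (adjusted p 0.151) and the thrombin receptor gene F2r one of -0.86 (adjusted p 0.12). The thromboxane receptor gene Tbxa2r and the prostaglandin E receptor gene Ptger3, named after their values were seen, were the other two lower ones. Ptger3 had 45.5, 16.6 and 85.1 normalised reads in cKO libraries, against 364.6, 274.1 and 94.3 in controls (log2 fold change -2.36, limma adjusted p = 0.176). Of 14 further subtypes of the 9 receptors' families 12 were listed and 6 tested, and limma called 0 of the 6. Adra2c had a log2 fold change of -1.29 (adjusted p 0.427), Adra2b -2.17 (adjusted p 0.494) and Agtr2, the type 2 angiotensin receptor, -0.75 (adjusted p 0.721).

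Of 12 receptor genes whose products relax the uterus limma called 0. Rxfp1, the relaxin receptor, was at 1574, 269.1 and 358.0 in cKO libraries and 4135, 2764 and 778.4 in controls, with a log2 fold change of -1.96 (limma adjusted p = 0.43). As with Oxtr, control replicate 3 was the lowest control and lay below the highest cKO library. The beta-1 adrenergic receptor gene Adrb1 had a log2 fold change of -2.26 (adjusted p 0.272) and the adenosine receptor gene Adora2b one of 0.58 (adjusted p 0.487).

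The ligand genes were mostly scarce. Of 12 genes for ligands and transmitter synthesis 9 were listed and 5 tested, and limma called 0. Edn1, which encodes endothelin-1 and is named after its values were seen, averaged 169.3 ± 42.5 in cKO and 178.8 ± 51.4 in control uteri (SD, n = 3 each, limma adjusted p = 0.95). Dbh, an enzyme of noradrenaline synthesis, had a log2 fold change of -1.10 (adjusted p 0.528), the tachykinin gene Tac4 one of 0.62 (adjusted p 0.798) and Th, which encodes tyrosine hydroxylase, one of -0.73 (adjusted p 0.801). Oxt, the oxytocin gene, had no read in cKO libraries and at most 2.44 normalised reads in a control. Tac1, the precursor of neurokinin A, and Agt, that of angiotensin II, are named after their values were seen. Tac1 was at 1.86, 6.83 and 2.21 in cKO libraries and 3.66, 92.6 and 608.5 in controls, highest in the library with the most neuron transcripts. Agt was at 349.4, 383.2 and 534.8 in cKO libraries and 3487, 140.2 and 191.3 in controls, highest in the library with the hepatocyte transcripts. Of 9 tested enzymes that process or break down these ligands limma called 0, among them Bche (butyrylcholinesterase), with 166.1 ± 43.7 in cKO and 450.5 ± 210 in control uteri (limma adjusted p = 0.153). Lnpep, which degrades oxytocin, had a log2 fold change of -0.31 (adjusted p 0.504) and Ece2, an endothelin-converting enzyme gene, one of -1.32 (adjusted p 0.502).

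Of 12 genes of receptor desensitisation limma called 0. Rgs2, which shortens Gq signals, averaged 467.1 ± 54.5 in cKO and 1389 ± 1048 in control uteri (SD, n = 3 each, limma adjusted p = 0.27). Its relative Rgs16 had 210.9, 239.9 and 170.2 normalised reads in cKO libraries, against 90.2, 132.1 and 72.1 in controls, with no overlap (log2 fold change 1.10, limma adjusted p = 0.147). The receptor kinase gene Grk6 had a log2 fold change of 0.37 (adjusted p 0.413).

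**Figure D5:**
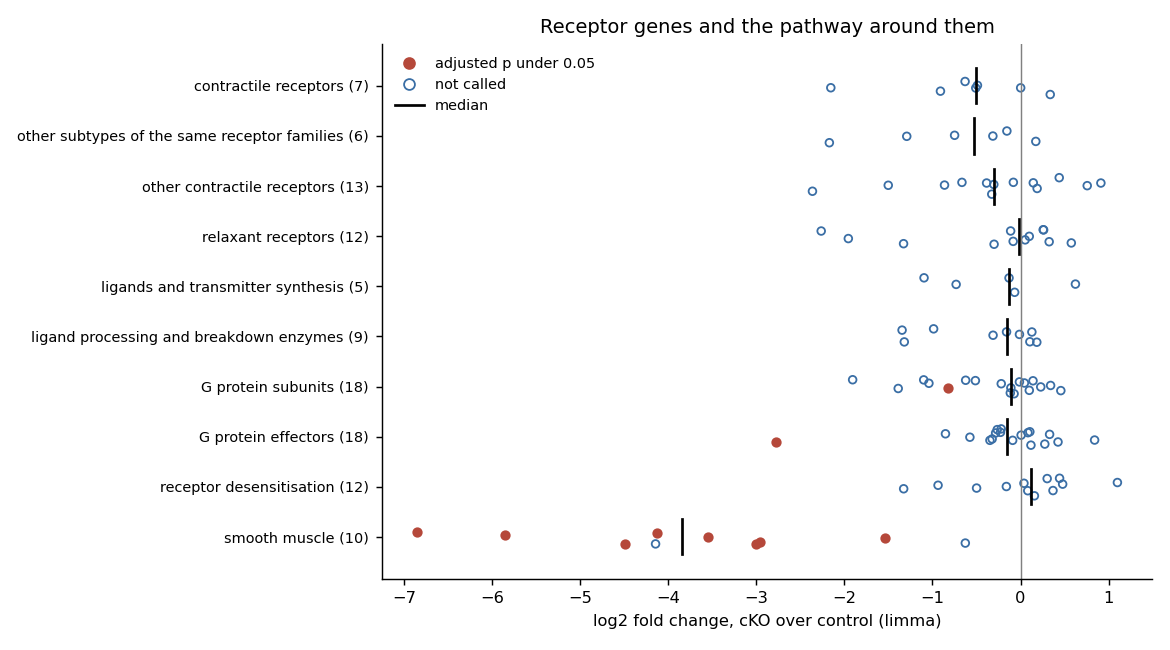
Log2 fold change, cKO over control (x axis, limma), of every tested gene in the receptor list, 8 pathway lists and the smooth muscle markers, with the number tested in brackets. Filled points have an adjusted p under 0.05, open points do not, and bars mark medians, which run from -0.53 to 0.12 outside the smooth muscle list and are at -3.84 within it.

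Among 12298 other genes annotated as protein-coding whose mean reached 50 normalised reads, 5 followed the pattern of Oxtr over the 6 libraries most closely, by the root mean square difference of centred log2 values. Rasd1, which encodes a small Ras-like GTPase, was nearest with a difference of 0.17, where the median gene was at 1.47. It had 173.8, 95.6 and 66.3 normalised reads in cKO libraries, against 638.9, 740.6 and 139.7 in controls, so that it too was low in control replicate 3. Npr3, the clearance receptor for natriuretic peptides, differed by 0.384, and its values were 167.3, 82.9 and 53.0 in cKO libraries and 1291, 1179 and 104.1 in controls. Vtcn1, an inhibitor of T cell activation, differed by 0.396, and 4930523C07Rik and Gm16485 differed by 0.384 and 0.404. None of the 5 passed the test between the groups (limma adjusted p from 0.12 to 0.508). The 5 were picked for likeness to Oxtr in these same libraries, and Oxtr was not called either. Their pattern and this outcome are therefore no results separate from that of Oxtr.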

How the data were processed

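Uterine RNA from 3 cKO and 3 control mice was extracted with Trizol, and per the submitters' processing notes reads passed through HISAT2, SAMtools and featureCounts, without versions. Those notes name GRCm39, but 25239 of 25988 genes found in GENCODE vM21 had identical coordinates, so coordinates are read as GRCm38. The authors' deposited values, of the unit signal, are reads per gene scaled by a size factor of each library. This was read from the values, of which 100% were whole reads within 0.01. The authors' deposited log2 fold changes and p-values come from a tool not given in the sources used here.

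Genes were filtered with edgeR 4.0.16 (filterByExpr) on the recovered reads, and log2(value + 1) was tested with limma 3.58.1 (trend, robust) in R 4.3.3, 3 cKO against 3 control libraries without covariates, with Benjamini-Hochberg adjustment over all 16314 genes. A fold change is on that scale, which understates the change of low genes. The edgeR quasi-likelihood test on recovered reads called 151 genes. The fit was tested on simulated reads. Per-kilobase values use the deposited exon length, and a ratio of 2 genes uses log2(value + 1). Limits for 0 use 3 reads and cover counting error only, as reads are not independent molecules. Shared stretches (at least 100 bases) were found with blastn 2.17.0. Other subtypes, ligands, effectors and markers come from lists, and from each pathway list called genes and up to 3 more with the smallest p are named. The members and lists were chosen with earlier results of these data known. Alternatives were other scalings, filters, pseudocounts (0.5 and 5), DESeq2 1.42.0, limma-voom, a replicate block and leaving out each library.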

Additional observations from a re-analysis of the deposited data

How the results depend on the processing

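Counts over all genes moved most. Against 145 lower and 45 higher genes, DESeq2 called 578 and 280, and limma-voom 82 and 19. With no filter on low values 82 were higher. Leaving out 1 library gave 42 to 347 lower and 1 to 117 higher genes. Of the receptor genes 0 were called, against 1 lower with DESeq2 and 0 to 1 leaving out 1 library (Oxtr without control replicate 3, Chrm2 without control replicate 1). The direction of Ednrb, near 0, turned with edgeR (-0.095), DESeq2 (-0.090), limma-voom (-0.022) and without cKO replicate 2 (-0.035), control replicate 1 (-0.23) or control replicate 3 (-0.12), and that of Avpr1a without control replicate 2 (-0.23). Leaving out 1 library, Ednrb reached at most 0.35 (without control replicate 2) and Avpr1a at most 0.77 (without control replicate 3). The cause was not tested. Under the other pseudocounts, ratios within a library and values relative to smooth muscle markers moved by less than the SD pooled over both groups. In some cases they moved by more than the SD of 1 group. TMM scaling cancels out of such differences apart from the pseudocount. Leaving out 1 of 3 libraries cannot move a group mean by the pooled SD, whatever the data. Neither of these 2 alternatives therefore shows that the values are stable, and Chrm2 and Tacr2 changed direction as given above. Same-numbered libraries did not deviate together (Pearson's r of deviations across genes 0.0084, -0.18 and 0.044). The labels name no pairing, and with 3 animals per group these correlations cannot settle whether the numbers pair the animals. A replicate block gave 149 lower and 34 higher genes and 0 receptor genes (Oxtr adjusted p 0.0787), and Gng12 was not called (0.0651). Chrm3 and Adra1a had at most 22 reads in a library, where counting error is large.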
